A study of Danio rerio with 20 samples.

Results

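The growth hormone (GH) and insulin-like growth factor (IGF) axis of the liver was followed through 10 genes: the ligands igf1, igf2a and igf2b, the GH receptors ghra and ghrb, the IGF-binding proteins igfbp1a, igfbp1b and both igfbp2 genes, and igfals, which encodes the acid-labile subunit. They were taken by name from the 32520 genes of each count table, and all 10 listed genes had a row. The list was chosen with earlier results of these data known. The symbol table gives some zebrafish genes the capital human symbol without the paralog letter. IGFBP1 (ENSDARG00000099351) was taken as igfbp1a because igfbp1b (ENSDARG00000038666) has a row of its own. Both ENSDARG00000031422 and ENSDARG00000052470 carry the symbol IGFBP2, and since the table does not say which is igfbp2a and which igfbp2b, they are named here by identifier.

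The libraries were bulk liver RNA from 20 adult male zebrafish in 2 experiments. In the CreLox experiment, all fish carried the Cre driver Tg(fabp10a-CreERT2), which places tamoxifen-inducible Cre recombinase under the hepatocyte promoter fabp10a. The 4 CreLox zebrafish with hepatocellular carcinoma (HCC; fish 604, 605, 623 and 624) and the 2 CreLox zebrafish without HCC (fish 609 and 625) also carried the lox-switch transgene, Tg(fabp10a-CreERT2;fabp10a-flox-beta-catenin), and were given 10 µM 4-hydroxytamoxifen as larvae, between days 3 and 6 after fertilization. The 4 Cre driver controls (fish 621, 622, 628 and 630) received 0.1% ethanol in the same days, so that the lox-switch transgene and tamoxifen cannot be told apart in this comparison. By the paper's methods the larval tamoxifen solution also held 0.1% ethanol. All 10 were sampled at 11 months post fertilization (mpf). In the HepABC experiment, 5 zebrafish with HCC (fish 317E5, 317E6, 317E9, 317E10 and 317E11) carried activated β-catenin directly under the hepatocyte promoter, Tg(fabp10a-pt-beta-catenin), and 5 Wild Type fish (non-transgenic, NonTg: 317C1, 317C2, 317C4, 317C5 and 317C8) were the controls, all untreated and at 6 mpf. In both models activated β-catenin was driven by this promoter of hepatocytes. The diagnoses are those of histology on the same livers, and each library is 1 fish.

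In vertebrates, GH from the pituitary binds its receptor on hepatocytes, and the receptor signals through the kinase JAK2 and the transcription factor STAT5 to switch on IGF1, the endocrine growth factor that the liver releases. Most circulating IGF in mammals travels in a complex with an IGF-binding protein and the acid-labile subunit, which prolongs its life in blood. IGFBP1 is known in mammals and fish as the binding protein that rises in fasting, stress and low oxygen and falls with insulin, whereas IGF2 is the fetal growth factor of mammals that adult zebrafish liver also transcribes from duplicated genes. Duplicated zebrafish genes, called paralogs, carry the letters a and b.

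Levels are given in CPM, which is counts divided by the library size and scaled by the TMM method, and changes as log2 fold changes with their standard errors (SE). Library totals were between 20903187 and 37994885 counts. A sum of 13 hepatocyte markers was between 30290 and 214900 CPM in every library, as liver should have, and a list of 6 pituitary markers did not exceed 0.15 CPM. The GH gene gh1 had no count in any of the 20 libraries, which allows at most 3 counts, or 0.15 CPM in the smallest library. Exocrine pancreas markers were uneven among the NonTg controls, with a sum of 8319 CPM in fish 317C1 but 19.42 CPM in fish 317C8, against 15.88 to 31.06 CPM in HepABC HCC, and their part in the results below was not tested. Among the Cre driver controls, fish 621 and 622 stood apart from fish 628 and 630. Their hepatocyte marker sums were 214900 and 206400 CPM against 123400 and 112800 CPM, and their TMM factors were 0.74 and 0.76 against 1.05 and 1.0.

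**Figure D1:**
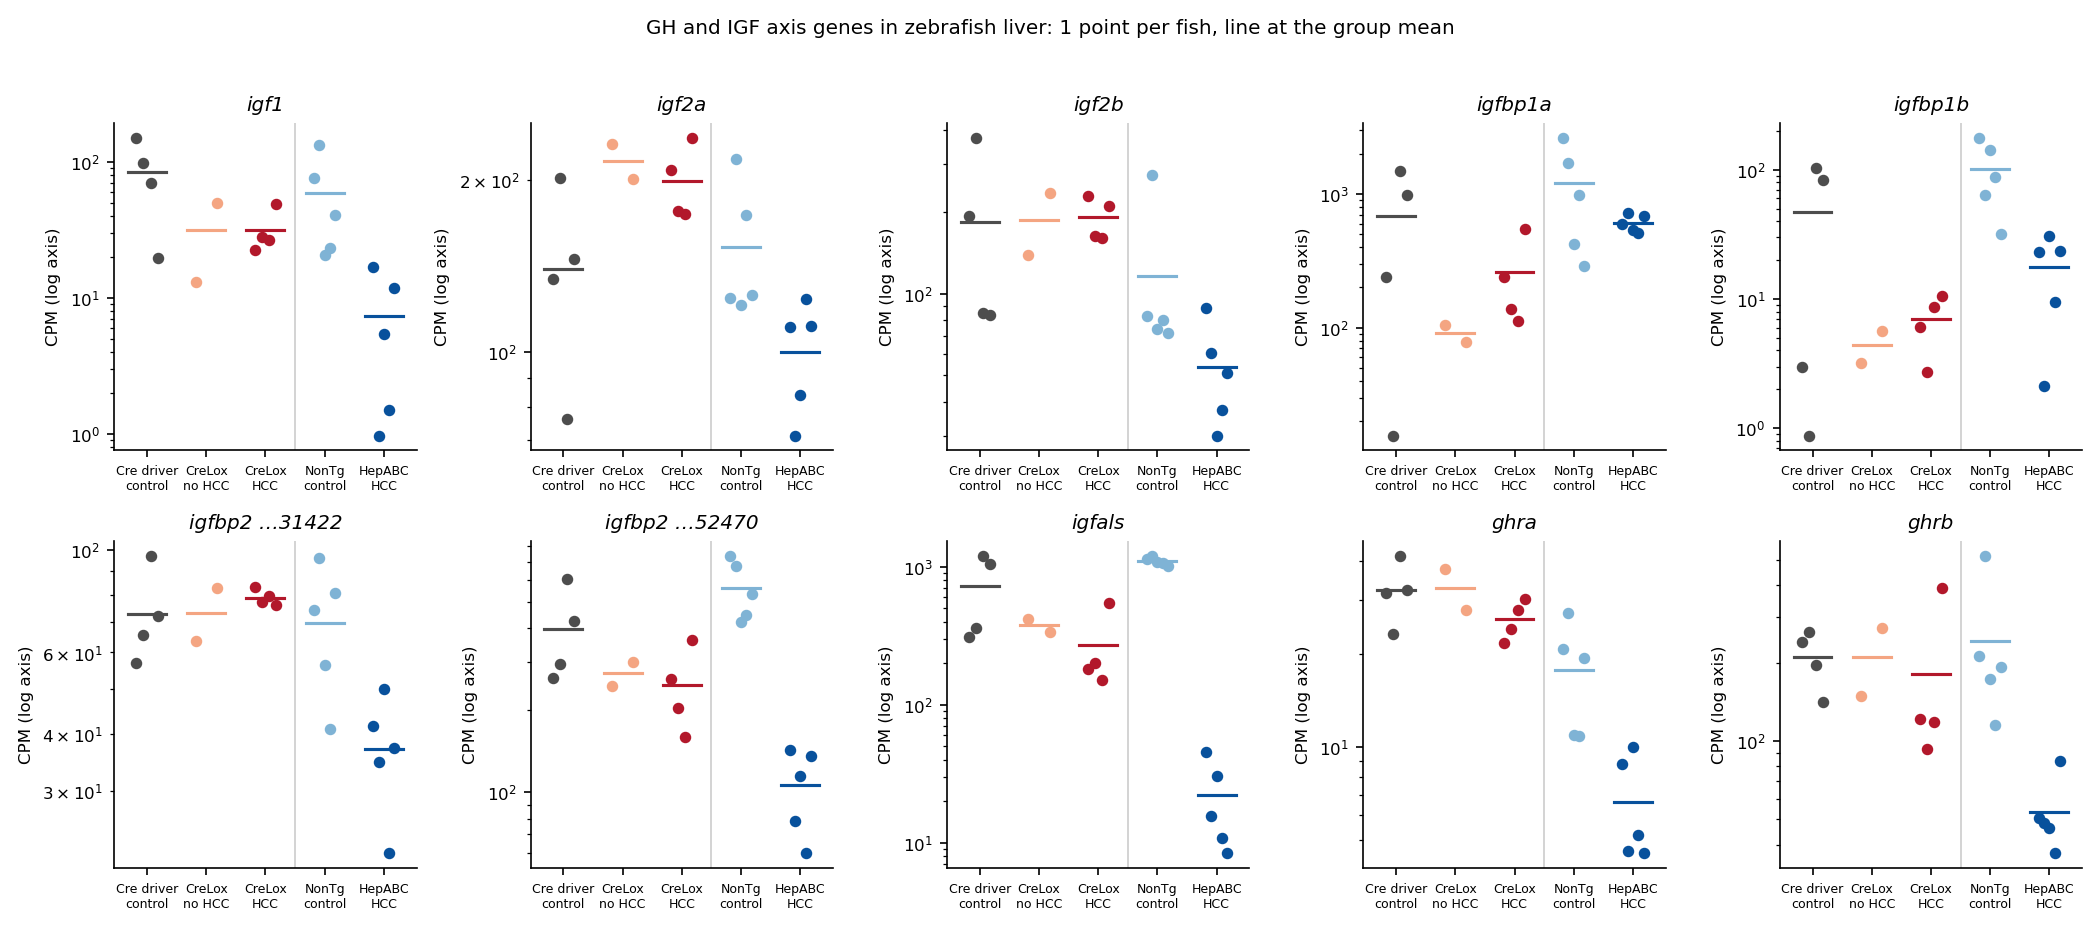
Level of each of the 10 genes in each fish, in CPM on a log axis, with 1 point per fish and a line at the group mean; the CreLox experiment is left and the HepABC experiment right of the grey line in each panel. The NonTg controls had 1019 to 1194 CPM of igfals and the HepABC zebrafish with HCC 8.37 to 45.4 CPM, while the Cre driver controls spread widely for igfbp1a and igfbp1b.

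The comparison of HepABC HCC with NonTg controls asked how the axis stands in livers with HCC when activated β-catenin is expressed without a switch. Of the 10 genes, 7 fell, none rose, and 3 did not pass the test (igf2a, igf2b and igfbp1a). The largest fall was that of igfals, 50.9-fold, followed by igf1 at 8.16-fold. The tool was edgeR's quasi-likelihood test with Benjamini-Hochberg adjustment over all genes tested, and a gene was called at an adjusted p under 0.05. In this comparison 33.7% of 15864 genes were called, 17.4% as higher and 16.2% as lower, so a call by itself is common here. Of these calls 51.8% were higher, and 90.3% when libraries were scaled by their totals alone. The median log2 fold change of the 10 genes was -1.84, against -0.00 over all genes tested. In 6 of the 10 genes every HepABC fish lay below every control in CPM, which held for 11.3% of genes of at least 1 CPM, and 25.4% were apart in either direction. The TMM factors behind these CPM were 1.12 to 1.5 in HepABC HCC and 0.76 to 0.87 in the controls. With counts divided by library totals alone, igf1, igfbp1b, ghra and ghrb overlapped between the groups. In bulk RNA, fewer cells of a type and less RNA per cell cannot be told apart. All 13 hepatocyte markers fell as well, with log2 fold changes between -3.53 and -1.33 and a median of -2.31. So did 5 of 8 stellate markers tested (median -1.58), 5 of 5 endothelial markers (-1.08), 5 of 5 erythrocyte markers (-3.42) and 11 of 11 exocrine pancreas markers (-8.03). Of 6 biliary markers tested 1 rose, and the summed level of all 8 listed was 1168 to 3770 CPM in HepABC HCC against 555.7 to 1569 CPM in the controls. None of 6 macrophage and 3 neutrophil markers was called, and of 4 lymphocyte markers 1 rose and 1 fell. The part of these cell types in the changes of the 10 genes was not tested.

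Among the ligands, igf1 (ENSDARG00000094132) had 76.0, 132.9, 20.7, 23.3 and 41.0 CPM in the NonTg controls 317C1, 317C2, 317C4, 317C5 and 317C8. In HepABC HCC it had 17.0, 0.967, 5.37, 1.48 and 11.7 CPM in fish 317E5, 317E6, 317E9, 317E10 and 317E11. The groups did not overlap in CPM, although the highest tumour-bearing liver came close to the lowest control, and fish 317E6 and 317E10 were almost without igf1 transcript. On library totals alone they overlapped, as fish 317E5 had 898 counts of 36614547 and control 317C4 427 of 27094493. The log2 fold change of igf1 was -3.03 (SE 0.82, adjusted p = 0.0154 from edgeR). Scaled by library totals alone it was -2.14 and stayed called (adjusted p = 0.037 from edgeR).

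The igf2 paralogs did not pass the test. For igf2a (ENSDARG00000018643) the controls had 120.7 to 217.9 CPM and HepABC HCC 71.3 to 123.6 CPM, a log2 fold change of -0.65 (SE 0.24, adjusted p = 0.0542 from edgeR) that turned to 0.23 when libraries were scaled by their totals alone. For igf2b (ENSDARG00000033307) the controls had 71.6 to 273.6 CPM and HepABC HCC 30 to 88.6 CPM, a log2 fold change of -1.16 (SE 0.44, adjusted p = 0.0616 from edgeR). Scaled by library totals alone, the change of igf2b was -0.26 (adjusted p = 0.647 from edgeR). In both paralogs control fish 317C2 was the highest of all 10 fish in CPM, and the groups overlapped. DESeq2 called both as lower, with adjusted p-values of 0.0349 and 0.031.

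Both GH receptors fell. The receptor ghrb (ENSDARG00000007671) had 213.4, 517.2, 174.3, 115.0 and 192.8 CPM in the NonTg controls 317C1, 317C2, 317C4, 317C5 and 317C8. It had 50.9, 48.6, 46.3, 37.0 and 83.6 CPM in HepABC fish 317E5, 317E6, 317E9, 317E10 and 317E11, a log2 fold change of -2.22 (SE 0.40, adjusted p = 0.00188 from edgeR). The groups were apart in CPM but not on library totals alone, and fish 317C2 was again the highest in CPM, as it was for igf1. The receptor ghra (ENSDARG00000054771) had 20.8, 27.1, 10.9, 10.9 and 19.4 CPM in the controls in the same order. It had 8.84, 4.58, 9.98, 5.16 and 4.51 CPM in the HepABC fish in the same order, a log2 fold change of -1.47 (SE 0.33, adjusted p = 0.00639 from edgeR). Only a small gap separated the highest HepABC fish from the lowest controls in ghra. Scaled by library totals alone, the change of ghra was -0.62 and was no longer called (adjusted p = 0.0995 from edgeR).

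The binding proteins differed among themselves. For igfbp1b the NonTg controls 317C1, 317C2, 317C4, 317C5 and 317C8 had 175.8, 64.1, 142.4, 88.1 and 31.7 CPM. The HepABC fish 317E5, 317E6, 317E9, 317E10 and 317E11 had 23.0, 2.13, 30.5, 9.41 and 23.7 CPM, a log2 fold change of -2.54 (SE 0.66, adjusted p = 0.0123 from edgeR) with no overlap in CPM. Its paralog igfbp1a ran from 287.7 to 2629 CPM among the controls. The HepABC fish kept to a narrow band of 514.3 to 722.9 CPM inside that range. The log2 fold change of igfbp1a was -1.01 (SE 0.50, adjusted p = 0.148 from edgeR), and it was called only when control fish 317C8, the lowest, was left out (-1.27, adjusted p = 0.0472). Scaled by library totals alone, the change of igfbp1a was -0.12 (adjusted p = 0.848 from edgeR).

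The igfbp2 gene ENSDARG00000052470 had 734.8, 677.1, 421.3, 447.6 and 532.0 CPM in the NonTg controls in the order above. It had 142.5, 78.4, 115.0, 59.7 and 135.8 CPM in the HepABC fish, a log2 fold change of -2.44 (SE 0.29, adjusted p = 0.000219 from edgeR). Every HepABC fish was far below every control. The other igfbp2 gene, ENSDARG00000031422, changed less. It had 41.0 to 96.3 CPM in the controls and 22.02 to 49.96 CPM in HepABC HCC, with overlap, a log2 fold change of -0.95 (SE 0.27, adjusted p = 0.0204 from edgeR). On library totals alone its change was -0.08 (adjusted p = 0.788 from edgeR).

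The acid-labile subunit gene igfals (ENSDARG00000037836) separated the groups most widely of the 10 genes. The NonTg controls 317C1, 317C2, 317C4, 317C5 and 317C8 had 1134, 1194, 1088, 1060 and 1019 CPM, a coefficient of variation of 6.16%. The HepABC fish 317E5, 317E6, 317E9, 317E10 and 317E11 had 45.4, 15.7, 30.7, 10.9 and 8.37 CPM. The log2 fold change was -5.67 (SE 0.50, adjusted p = 5.17e-05 from edgeR), and over every alternative run it lay between -6.12 and -4.83.

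**Figure D2:**
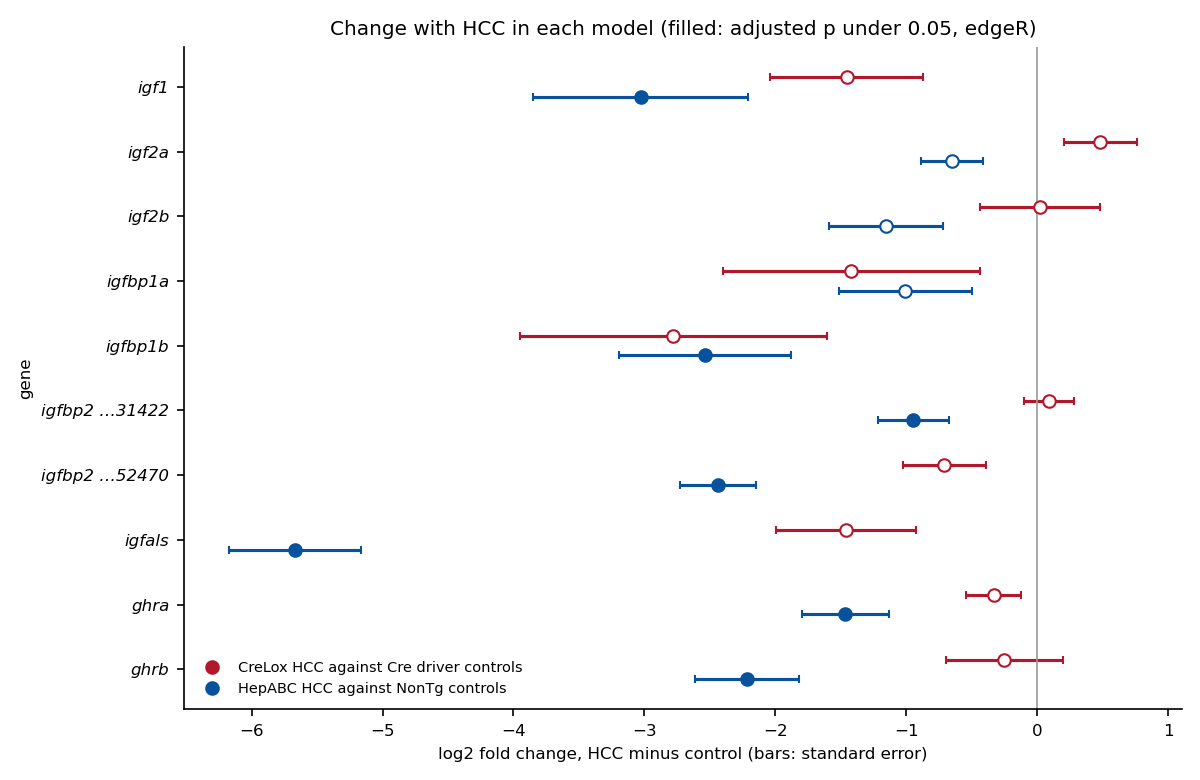
Log2 fold change of each gene between HCC and control livers in both models, with bars of 1 standard error; filled points are called by edgeR at an adjusted p under 0.05. The 7 filled points are all of the HepABC model and all left of 0, led by igfals at -5.67, and the CreLox model has none.

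Dividing each gene by the summed hepatocyte markers of the same library removes any scaling of libraries. This ratio was chosen after the values were seen and carries no test. The marker sum itself was lower in HepABC HCC (median 37180 CPM) than in the NonTg controls (median 190900 CPM). A gene that fell less than the markers therefore has a higher ratio. The share of all genes whose groups lie apart in this ratio was not computed. Per 1000 CPM of hepatocyte markers, igfals stood at 4.77 to 6.32 CPM in the NonTg controls and at 0.225 to 0.827 CPM in HepABC HCC, and it was the only 1 of the 10 genes whose HepABC fish were all below the controls. The ratio was higher in every HepABC fish for 2 genes. They were igf2a, at 1.6 to 4.08 CPM against 0.59 to 1.15 CPM, and igfbp2 ENSDARG00000031422, at 0.727 to 1.13 CPM against 0.244 to 0.509 CPM. The other 7 overlapped between the groups. Among these, the median ratio was higher in HepABC HCC for ghra (0.161 against 0.0909 CPM) and ghrb (1.22 against 0.904 CPM). It was also higher for igf2b (1.37 against 0.433 CPM) and igfbp1a (17.0 against 5.82 CPM). The median was lower for igf1, igfbp1b and igfbp2 ENSDARG00000052470. For igf1 the ratio was 0.0314 to 0.316 CPM in HepABC HCC and 0.104 to 0.702 CPM in the controls, and for ghrb 0.881 to 2.25 CPM and 0.685 to 2.73 CPM. For igfbp2 ENSDARG00000052470, which fell 5.42-fold in CPM, the ratio was 1.97 to 3.65 CPM in HepABC HCC and 2.11 to 3.85 CPM in the controls.

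**Figure D3:**
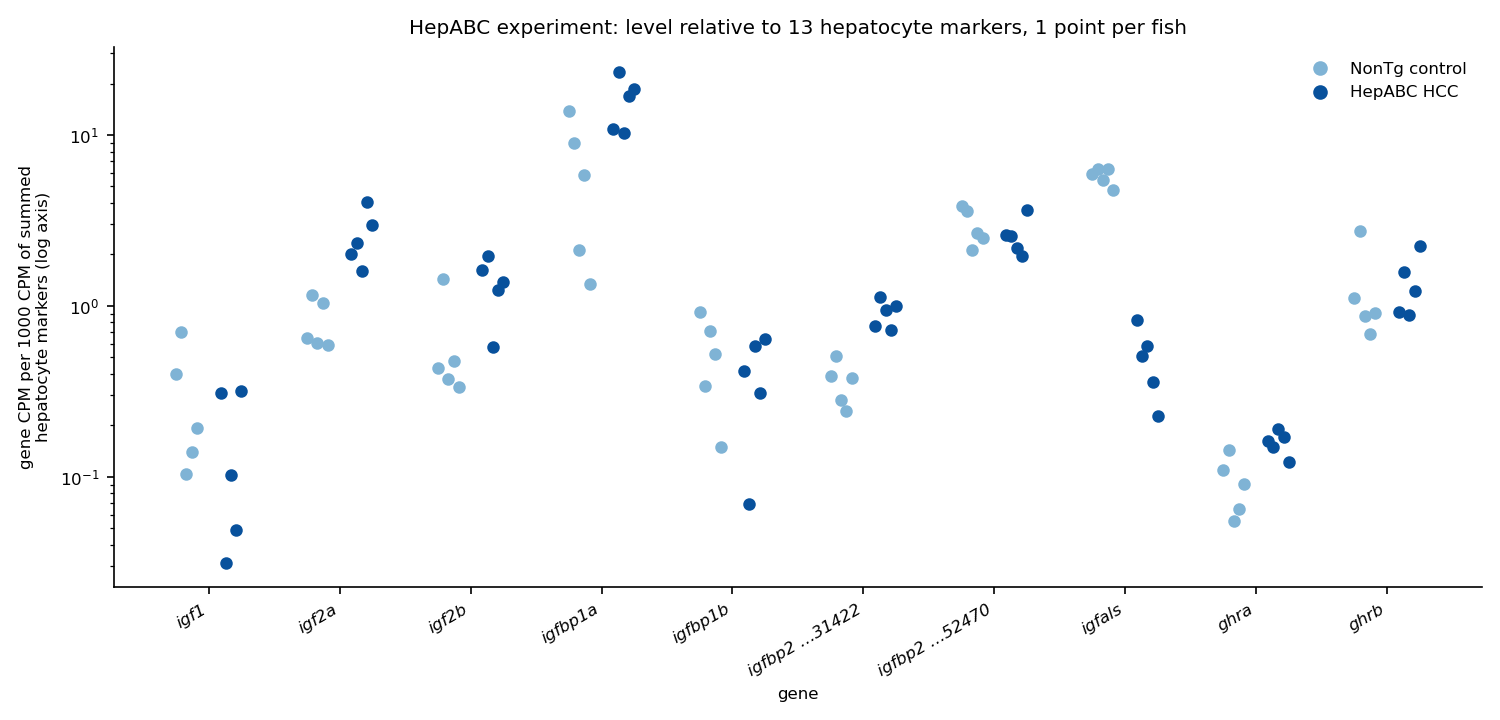
Each gene's CPM per 1000 CPM of the 13 summed hepatocyte markers in the HepABC experiment, on a log axis, with 1 point per fish. Only igfals has all HepABC points (0.225 to 0.827) below all NonTg points (4.77 to 6.32), and igf2a and igfbp2 ENSDARG00000031422 have all HepABC points above.

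In the CreLox experiment the same 10 genes were compared between CreLox HCC and the Cre driver controls. None was called, whereas 4.2% of 16837 genes were called, 2.39% as higher and 1.81% as lower. Of these calls 57.0% were higher, 82.0% on library totals alone, 43.3% with limma voom and 45.8% without fish 621 and 622. Without adjustment, 4 of the 10 had p under 0.05 in edgeR (igf1, igfbp1b, igfbp2 ENSDARG00000052470 and igfals), against 23.5% of all genes, and DESeq2 called igfals alone (adjusted p = 0.0474). The median log2 fold change of the 10 was -0.52, against -0.05 over all genes tested, and 7 values were negative. In no gene were the groups apart, where 14.6% of genes were, 8.53% with CreLox HCC higher and 6.09% with it lower. The hepatocyte markers had a median log2 fold change of -0.59, with 1 of 13 called, and their part in these values was not tested.

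For igf1 the Cre driver controls 630, 628, 621 and 622 had 150.4, 98.6, 70.6 and 19.6 CPM. The CreLox HCC fish 604, 605, 623 and 624 had 22.6, 27.9, 26.6 and 49.3 CPM, a log2 fold change of -1.45 (SE 0.58, adjusted p = 0.171 from edgeR). Of the 4 controls, 3 were above every CreLox HCC fish, and control 622 was below all of them. The CreLox fish without HCC, 625 and 609, had 13.1 and 50.3 CPM, which spans the range of those with HCC.

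The control fish split in the binding proteins and igfals. For igfbp1a the Cre driver controls 621 and 622 had 1502 and 990.9 CPM and the controls 628 and 630 had 15.6 and 240.1 CPM, a 96.5-fold range within 1 group. For igfbp1b they had 102.7 and 83.1 CPM against 0.878 and 2.96 CPM. For igfals they had 1199 and 1046 CPM against 359.7 and 311.2 CPM. Fish 621 and 622, the pair with the higher hepatocyte marker sums, were thus the high fish for all 3 genes, and they were the low fish for igf2b, with 84.5 and 83.7 CPM against 373.9 and 192.9 CPM in fish 628 and 630.

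The CreLox HCC fish 604, 605, 623 and 624 lay within the range of the controls for both igfbp1 genes. They had 239.5, 137.7, 113.1 and 551.1 CPM of igfbp1a, a log2 fold change of -1.42 (SE 0.98, adjusted p = 0.404 from edgeR). They had 6.09, 2.71, 8.67 and 10.6 CPM of igfbp1b, a log2 fold change of -2.78 (SE 1.17, adjusted p = 0.187 from edgeR). Both signs rested on the high pair of controls. With fish 621 and 622 left out, the changes were 1.02 for igfbp1a and 1.88 for igfbp1b (adjusted p = 0.534 and 0.108 from edgeR).

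The igfals values of CreLox HCC were 182.7, 200, 151.3 and 543.1 CPM in fish 604, 605, 623 and 624, so 3 fish lay below every control and fish 624 within their range. The log2 fold change was -1.46 (SE 0.53, adjusted p = 0.138 from edgeR). Without fish 624 it was -2.05 and was called (adjusted p = 0.0456), and without control fish 621 and 622 it was -0.33 (adjusted p = 0.7). The igfbp2 gene ENSDARG00000052470 was also highest in fish 624 among CreLox HCC and in fish 621 and 622 among the controls, with 259.8, 204.1, 159.8 and 361.6 CPM in CreLox HCC and 261.4, 294.1, 603.7 and 426.1 CPM in controls 630, 628, 621 and 622. Its log2 fold change was -0.71 (SE 0.32, adjusted p = 0.212 from edgeR). With fish 621 and 622 left out, igf1 was the gene called of the 10, at -1.99 (adjusted p = 0.0443 from edgeR), where the 2 remaining controls had the highest igf1 of their group.

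The other 5 genes were not called in the CreLox experiment, also without adjustment. For igf2a the CreLox HCC fish had 174.5 to 236.9 CPM and the controls 76.2 to 201.7 CPM, and for igf2b 160.5 to 229.6 CPM and 83.7 to 373.9 CPM. For ghra they had 21.8 to 30.2 CPM and 23.2 to 41.6 CPM. For ghrb the CreLox HCC fish 604, 605 and 623 had 122.2, 93.7 and 118.6 CPM, below every control (141.5 to 263.7 CPM), and fish 624 had 389.1 CPM, above every control. On library totals alone, fish 604, 605 and 623 were all above control fish 622. That control had 2827 counts of 26351530, and fish 605 had 2872 of 25273800. Fish 624 was the highest CreLox HCC fish in CPM for every gene of the 10 but igf2b and igfbp2 ENSDARG00000031422. It had the lowest TMM factor of its group (0.87) and the highest hepatocyte marker sum (131700 CPM). On library totals alone, fish 624 was not the highest for igf2a, igfbp1b and ghra either. The igfbp2 gene ENSDARG00000031422 had the least spread in CPM of any of the 10 genes in any group, with 76.0 to 83.1 CPM in CreLox HCC (coefficient of variation 3.96%) and 57.0 to 97.1 CPM in the controls. On library totals alone this did not hold, as fish 624 had 1657 counts of 25195573 and fish 605 had 2363 of 25273800. The log2 fold changes of these 5 genes were between -0.33 and 0.48. Single fish moved some of them, with ghrb going from -0.25 to -0.93 (adjusted p = 0.0931 from edgeR) without fish 624 and igf2b from 0.02 to 0.64, also not called, without control fish 628. Without fish 621 and 622, igf2b was at -0.58 (adjusted p = 0.281).

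The 2 CreLox fish without HCC carried the same transgenes and had the same larval exposure. Against the Cre driver controls none of the 10 genes was called by edgeR, DESeq2 or limma, with 0 of 10 under an unadjusted p of 0.05 in edgeR and with 0.315% of all genes called, 0.297% as higher and 0.0178% as lower. In no gene were these groups apart, where 17.8% of genes were, 10.2% higher and 7.59% lower. Between CreLox fish with and without HCC none was called either by the 3 tools, again with 0 of 10 at an unadjusted p under 0.05 and with 1 gene called of all 16837, or 0.00594%. The closest to a separation was igfbp1a, with 113.1 to 551.1 CPM in the fish with HCC and 78.6 and 104.0 CPM in those without, which do not overlap, as was the case for 5.41% of genes in this direction, 5.59% in the other and 11.0% in either. The log2 fold change was 1.5 (SE 1.27, adjusted p = 1.0 from edgeR).

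**Figure D4:**
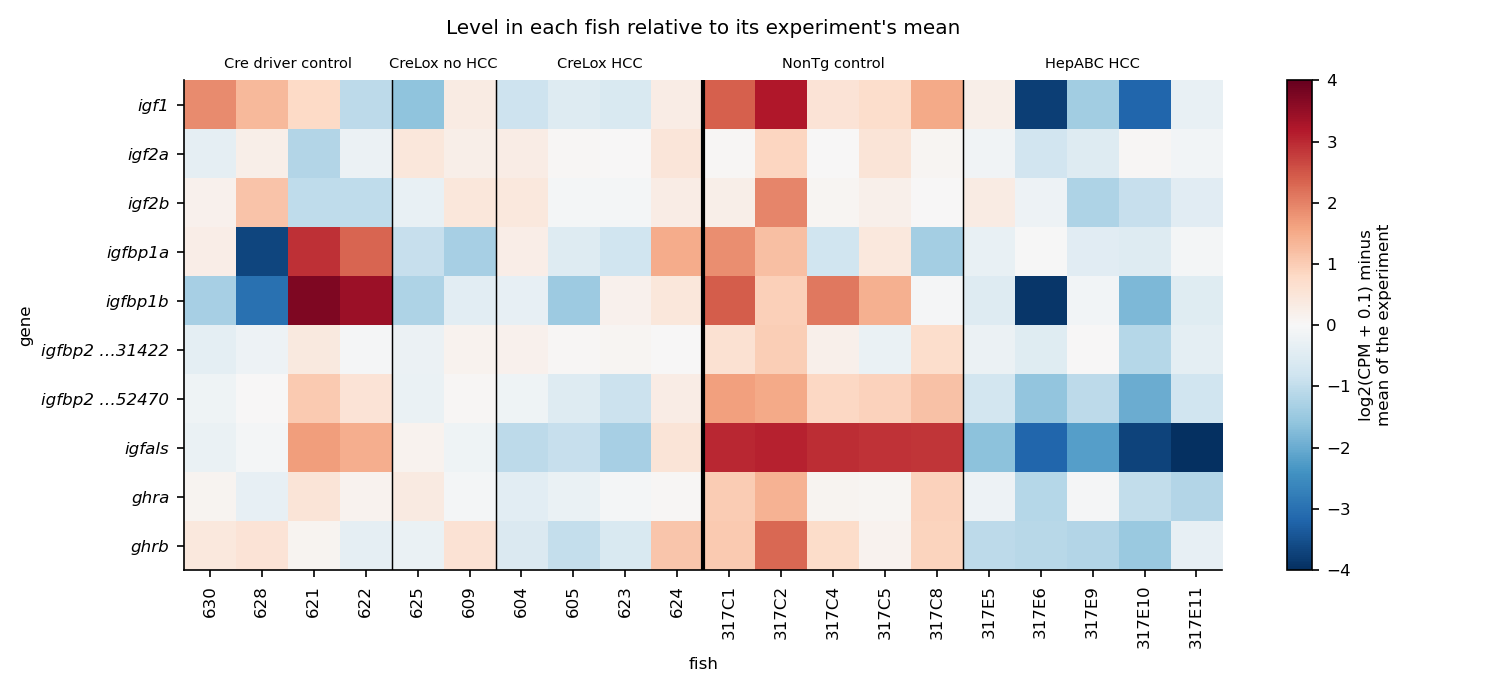
Log2(CPM + 0.1) of each gene in each fish minus the mean of its experiment, red above and blue below, with 1 column per fish; the thick line parts the experiments. Fish 621 and 622 are red for igfbp1a, igfbp1b and igfals within the Cre driver controls, and igfals parts the HepABC experiment into all red NonTg and all blue HepABC columns.

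The difference between the changes of both models was tested directly, as the HepABC change minus the CreLox HCC change in a fit to all 20 libraries. It was called for 3 of the 10 genes, all with the larger fall in HepABC, where 11.3% of 18645 genes were called, 6.01% as higher and 5.33% as lower. Of these calls 53.0% were higher, and 87.4% on library totals alone. For igfals the difference was -4.19 (SE 0.73, adjusted p = 0.00251 from edgeR), and for igfbp2 ENSDARG00000052470 it was -1.72 (SE 0.44, adjusted p = 0.0185). These were called under every alternative run. For ghrb the difference was -1.97 (SE 0.63, adjusted p = 0.0492), and its call was lost in 17 of 20 fits that left out 1 fish, with the smallest difference, -1.25 (adjusted p = 0.152), without fish 624 and the next, -1.48 (adjusted p = 0.0941), without fish 317C2. The ghrb call was also lost in edgeR with DESeq2 size factors (adjusted p = 0.0503), in the compared groups alone (0.0529) and with genes kept at 1 count or more in all (0.062). Library totals alone (0.17) and omission of fish 621 and 622 (0.136) in edgeR, and limma voom (0.157), lost it too. For igf1 it was -1.58 (SE 1.06, adjusted p = 0.35 from edgeR), so that a difference between the models was not shown for the axis' main ligand. For igfbp1b it was 0.26 (SE 1.31, adjusted p = 0.931 from edgeR) with all fish and -4.34 (adjusted p = 0.0177) without control fish 621 and 622. The models also differ in age, larval treatment and removal of duplicate reads, which cannot be told apart from the transgene here.

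Across all 5 groups, HepABC HCC had the lowest mean CPM of 8 genes and the third of 5 for igfbp1a and igfbp1b. On library totals alone HepABC HCC was not the lowest group for igf2a, whose log2 fold change against NonTg was then 0.23. For igf1 the means ran from 84.8 CPM in the Cre driver controls through 58.8 CPM in NonTg, 31.7 CPM in CreLox without HCC and 31.6 CPM in CreLox HCC to 7.31 CPM in HepABC HCC. The ranges of neighbours in that order overlapped except for the last pair, where the lowest CreLox HCC fish had 22.6 CPM and the highest HepABC fish 17.0 CPM. On library totals alone that pair overlapped too, as HepABC fish 317E5 had 898 counts of 36614547 and CreLox HCC fish 604 had 738 of 31074527. For igfals the means were 1099 CPM in NonTg, 728.9 CPM in the Cre driver controls, 377.5 CPM in CreLox without HCC, 269.3 CPM in CreLox HCC and 22.2 CPM in HepABC HCC. For this gene HepABC HCC did not overlap its neighbour in CPM. For igfbp1b the order was NonTg (100.4 CPM), Cre driver controls (47.4 CPM), HepABC HCC (17.7 CPM), CreLox HCC (7.01 CPM) and CreLox without HCC (4.43 CPM), with overlap between each pair of neighbours. Groups of different experiments are set side by side without a test.

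Within the HepABC experiment, fish that were high for one gene were often high for others. Within the CreLox experiment the direction of the relation varied from pair to pair. After centring each experiment on its mean, igfals and igfbp2 ENSDARG00000052470 had a Pearson r of 0.947 over the 20 fish, with 0.924 within the CreLox and 0.953 within the HepABC experiment. For igf1 and ghrb r was 0.834, with 0.648 and 0.883 within the experiments. The paralogs igfbp1a and igfbp1b had r = 0.881 within the CreLox experiment and 0.364 within the HepABC experiment. The relation of igf2b to igfbp1b differed in sign, with r = -0.838 within the CreLox experiment and 0.379 within the HepABC experiment. The same was seen for igf2b with igfbp1a (-0.79 and 0.512) and with ghra (-0.732 and 0.663). For igf1 and igfals r was 0.12 within the CreLox and 0.814 within the HepABC experiment. These correlations are descriptions across 20 or 10 fish that share their groups, scaling factors and hepatocyte content, and fish 621 and 622 sit at one end of the CreLox values.

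The genes whose pattern over the 20 fish was most like a member were sought among genes with a symbol. These were part of 13730 genes of at least 1 CPM on average, and genes without a symbol were not ranked. For igf1 they were SEC14L1 (r = 0.896), the retinol-metabolism gene DHRS3 (0.893) and asmt2 (0.89). For ghra they were itcha (0.93), TTLL3 (0.923) and mtus1b (0.919). For igfbp1a they were the stress kinase gene MAPK14 (0.825), the tryptophan-degrading enzyme gene tdo2b (0.807) and the lipase gene PNPLA2 (0.797). For igf1 r was 0.699 to 0.806 within the CreLox and 0.926 to 0.933 within the HepABC experiment. For ghra the HepABC experiment had r of 0.93 to 0.961, while within the CreLox experiment r was 0.584 for itcha, 0.477 for TTLL3 and 0.88 for mtus1b. The likeness to igfbp1a was closer within the CreLox experiment, with r of 0.876 to 0.938, than within the HepABC experiment, with r of 0.547 to 0.625. The top genes of such a search are high by selection, and no r of other genes is given beside them. Of all genes tested, 33.7% were called between the groups of the HepABC experiment. The part of that group difference in these r was not tested.

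Downstream of the GH receptor, 12 of 14 listed genes were tested in the HepABC model, of which 1 fell and none rose, where 16.2% of all genes fell and 17.4% rose. It was stat5a (ENSDARG00000019392), a gene of the transcription factor STAT5, with 9.75 to 13.3 CPM in HepABC HCC and 25.8 to 32.8 CPM in the controls. The log2 fold change of stat5a was -1.43 (SE 0.16, adjusted p = 0.000165 from edgeR). This call held under every alternative run. The paralog stat5b (ENSDARG00000055588) was not called, with 4.24 to 7.57 CPM in HepABC HCC and 5.66 to 9.75 CPM in the controls. The list's median was -0.48. In the CreLox model none of the 12 genes tested was called, with a median of -0.27.

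Among IGF and insulin receptors and their adaptors, 4 of 11 genes tested fell in the HepABC model and none rose, with a median log2 fold change of -0.96. Over all genes 33.7% were called in this model, 16.2% as lower. They were INSR (ENSDARG00000011948), an insulin receptor gene, at -0.96 (SE 0.19, adjusted p = 0.0035 from edgeR), the receptor substrates IRS1 at -2.30 (SE 0.55, adjusted p = 0.0087) and irs4a at -1.43 (SE 0.36, adjusted p = 0.011), and GRB10 (ENSDARG00000002013), an adaptor that dampens insulin and IGF signalling, at -1.07 (SE 0.28, adjusted p = 0.0128). On library totals alone the calls of INSR, irs4a and GRB10 were lost, and that of IRS1 stayed. In the CreLox model 2 of 12 genes fell, both GRB10 paralogs, where 1.81% of all genes fell. ENSDARG00000002013 had 10.5 to 13.1 CPM in CreLox HCC and 18.6 to 25.7 CPM in the controls, and the log2 fold change was -0.97 (SE 0.17, adjusted p = 0.0158 from edgeR). ENSDARG00000035308 had 0.62 to 1.05 CPM and 1.82 to 2.6 CPM, a log2 fold change of -1.45 (SE 0.31, adjusted p = 0.0298 from edgeR). The calls of both GRB10 paralogs held without control fish 621 and 622 together and were lost on library totals alone. With genes kept at 1 count or more in all, the call of ENSDARG00000035308 was lost too (adjusted p = 0.0542 from edgeR). That of ENSDARG00000002013 was also lost without fish 604 (adjusted p = 0.0605) or 623 (0.0512), and that of ENSDARG00000035308 without any 1 of fish 604, 605, 623, 628 and 630 (adjusted p of 0.0559 to 0.0993).

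Of the other IGF-binding proteins, their proteases and the inhibitors of these, 5 of 13 genes were expressed enough to be tested in the HepABC model, where 3 fell and 1 rose, against 16.2% and 17.4% of all genes. The 5 stellate and 5 endothelial markers named above fell in the same livers, and their part in the changes of this list was not tested. IGFBP5 (ENSDARG00000025348) had 0.873 to 2.81 CPM in HepABC HCC and 15.7 to 31.8 CPM in the controls, and the log2 fold change was -3.76 (SE 0.37, adjusted p = 8.66e-05 from edgeR). Its change differed between the models, by -2.13 (SE 0.57, adjusted p = 0.0231), and in the CreLox model alone it was -1.62 (adjusted p = 0.0633). The call of that difference was lost on library totals alone (-1.49, adjusted p = 0.0721), with limma voom (-1.65, adjusted p = 0.0929) and without fish 628 (adjusted p = 0.0514) or 624 (adjusted p = 0.0584). IGFBP7 changed by -0.94 (SE 0.17, adjusted p = 0.00163) and igfbp6b, at most 5.18 CPM in every fish, by -2.26 (SE 0.73, adjusted p = 0.0342), and both calls were lost on library totals alone. That of igfbp6b was also lost in 6 of 10 fits leaving out 1 fish, with the smallest change, -1.31 (adjusted p = 0.128), without fish 317C8. IGFBP3, the main carrier of IGF in mammalian blood, rose. It had 9.05 to 58.3 CPM in HepABC HCC and 3.79 to 16.8 CPM in the controls, and the log2 fold change was 1.64 (SE 0.54, adjusted p = 0.0349 from edgeR) that was no longer called in 6 of 10 fits leaving out 1 fish, among them that without fish 317E11 (adjusted p = 0.0985). In the RefSeq gene order of the GRCz12tu assembly igfbp3 is the neighbour of igfbp1a, whose values in the same livers are given above.

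The gene IGF2BP3, an oncofetal protein that binds IGF2 messenger RNA, had changes of opposite sign in the models. It rose in HepABC HCC, with 5.43 to 35.1 CPM against 2.40 to 3.79 CPM, a log2 fold change of 2.80 (SE 0.45, adjusted p = 0.00101 from edgeR), whereas in CreLox HCC it had 2.19 to 6.01 CPM against 8.06 to 12.5 CPM in the controls, and the log2 fold change was -1.32 (SE 0.40, adjusted p = 0.0909) that did not pass the test. The difference between the models was 4.14 (SE 0.64, adjusted p = 0.00134). The other 3 genes of this family were not called in either model. The leptin receptor gene lepr rose in both models, by 2.28 (SE 0.31, adjusted p = 0.00524) in CreLox HCC and 1.78 (SE 0.46, adjusted p = 0.0123) in HepABC HCC, and these calls held under every alternative run. The CreLox livers without HCC had 26.0 and 47.2 CPM of lepr, against 8.66 to 13.2 CPM in the Cre driver controls. That log2 fold change was 1.73, and between CreLox fish with and without HCC it was 0.55, neither of them called. In its list of 9 hormones and receptors lepr was the only gene called, and 1 could be tested in the CreLox and 2 in the HepABC model.

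The FoxO factors, whose activity insulin and IGF signalling hold down in mammals, and fasting genes were set beside igfbp1a because it belongs to the same response. In CreLox HCC 1 of 9 genes tested fell, against 1.81% of all genes, and the median log2 fold change was -1.76. The gene called was TRIB3, a stress-induced pseudokinase, with 5.89 to 11.8 CPM against 23.1 to 37.5 CPM (log2 fold change -1.76, SE 0.34, adjusted p = 0.0229 from edgeR), and it was lost when any of 3 CreLox HCC fish or control fish 621 was left out. In HepABC HCC 1 of 9 fell, against 16.2% of all genes, a FOXO1 gene (ENSDARG00000061549) at most 1.26 CPM in every fish of that experiment, whose call was lost in 7 of 10 fits leaving out 1 fish, and the median was -0.19. The changes differed between the models for 3 of the 9, with the CreLox value the lower, as they did for 6.01% of all genes in this direction. They were the other FOXO1 gene (ENSDARG00000099555) at 4.59 (SE 1.23, adjusted p = 0.0238), DDIT4, an inhibitor of growth signalling through mTOR, at 4.99 (SE 1.41, adjusted p = 0.03), and TRIB3 at 1.58 (SE 0.46, adjusted p = 0.0351). Without control fish 621 and 622 the difference of FOXO1 was 1.65 (adjusted p = 0.307) and that of TRIB3 1.5 (adjusted p = 0.0535), while that of DDIT4 was 5.35 (adjusted p = 0.0167). With limma voom the calls of FOXO1 (adjusted p = 0.059) and DDIT4 (adjusted p = 0.0842) were lost. The call of DDIT4 was lost in 5 and that of TRIB3 in 7 of 20 fits leaving out 1 fish.

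**Figure D5:**
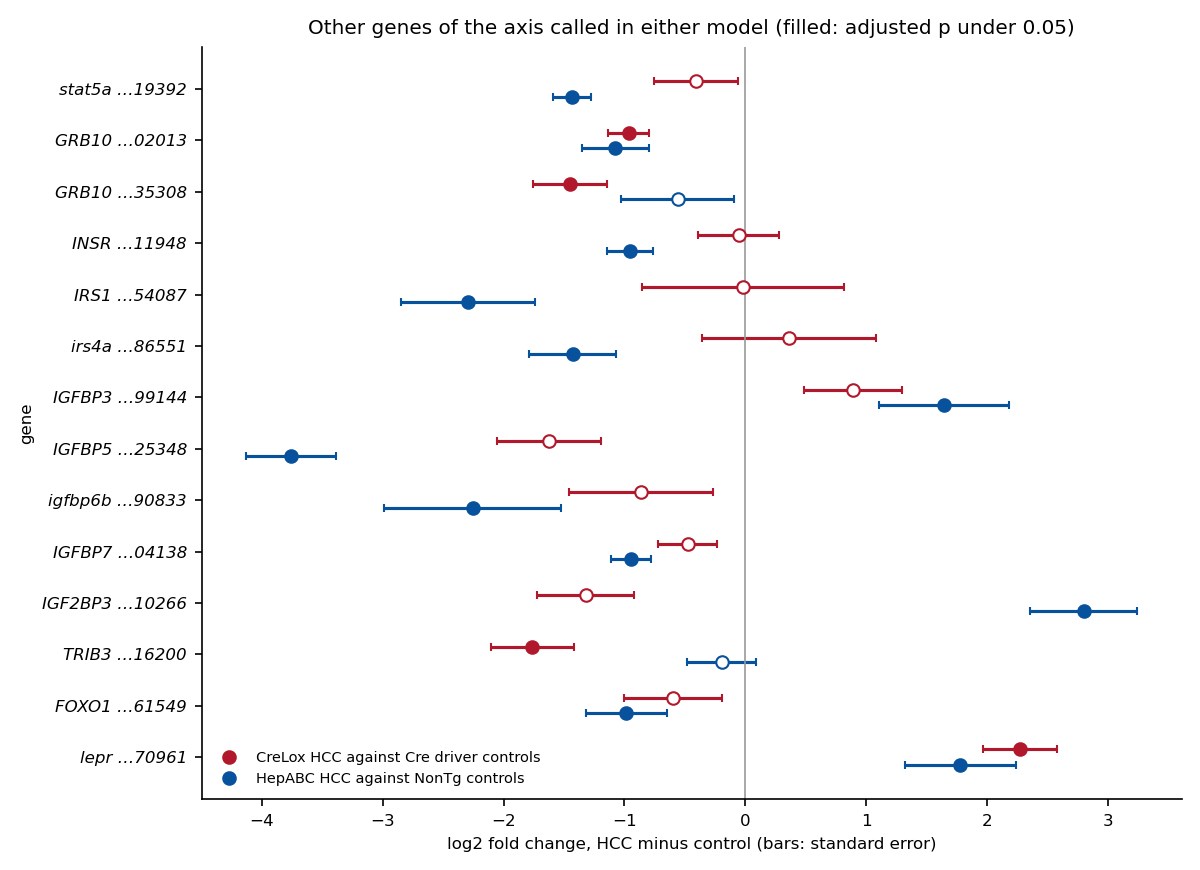
Log2 fold change between HCC and control livers, with bars of 1 standard error, of the other genes of the axis that were called in at least 1 of both models; filled points are called by edgeR. IGFBP5 (-3.76) and IRS1 (-2.30) fell in HepABC HCC, lepr rose in both models, and IGF2BP3 lies at 2.80 in HepABC and -1.32, unfilled, in CreLox.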

How the data were processed

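Bulk liver RNA-seq of 20 zebrafish was analysed as the authors deposited it, as raw counts of reads per Ensembl gene, 32520 genes in each of 2 tables. The authors made stranded mRNA libraries read in pairs of 150 bp, removed optical duplicates in the CreLox experiment only, trimmed adapters, aligned to GRCz11 with STAR 2.6.1b and counted with featureCounts 1.6.3, per the labels and methods. Reads shared by close paralogs may be lost or split. Symbols came from a reference table that matched 29201 identifiers. Groups came from the sample labels, which list 4 CreLox zebrafish with HCC. The paper's methods state a smaller number for this group, and all 4 labelled fish were used.

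Counts were fitted with edgeR 4.0.16 in R 4.3.3: TMM factors, filterByExpr, group means and the quasi-likelihood test, on the 10 CreLox libraries, the 10 HepABC libraries or, for the difference between models, all 20. All 10 genes passed the filter in each fit. Adjusted p-values (Benjamini-Hochberg) cover every gene in a fit, and a gene was called under 0.05. The standard error is the log2 fold change divided by the square root of the F statistic. CPM use TMM factors over all 20 libraries, and 0.1 was added before logarithms. Each sample is a separate fish; no 2 libraries of a group agreed within sampling noise (lowest chi-square per degree of freedom 45.3). The smallest library holds 20 counts at 1 CPM.

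The genes and lists were chosen with earlier results of these data known. Named genes are the 10 members, genes of the wider lists that were called or are needed to state a count, and the 3 genes with a symbol most like igf1, ghra and igfbp1a. Alternatives were DESeq2 1.42.0, its size factors, library totals alone, 2 other count filters (at least 1 count in all, at least 10 in every library), limma 3.58.1 voom with sample weights, the compared groups alone, and each fish left out. Leaving out fish 621 and 622 together was added after seeing the data. The fitting code was tested on simulated data. Coordinates and sequences are not given here.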

Additional observations from a re-analysis of the deposited data

Results flagged for a closer look

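Among the NonTg controls, igf2b in fish 317C2 lay far from the other 4 fish. It had 273.6 CPM against 71.6 to 82.7 CPM, and on the log scale its gap to the next fish was 0.893 of the whole range. This was the only such sample in 40 tests of a gene in a group, where chance gives about 1 in 20, or 2. The same fish had the highest CPM of the HepABC experiment for igf1, igf2a, igfbp2 ENSDARG00000031422, igfals, ghra and ghrb as well. On library totals alone, fish 317E10 was higher for igf2a, with 6173 counts of 33836078 against 5278 of 30974139 in fish 317C2.

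The change with HCC differed between the models, by edgeR's test of the difference, for igfals (-4.19, adjusted p = 0.00251), igfbp2 ENSDARG00000052470 (-1.72, adjusted p = 0.0185) and ghrb (-1.97, adjusted p = 0.0492). The call of ghrb was lost in 17 of 20 fits that left out 1 fish. The sum of hepatocyte markers moved with all 3 genes, from 167900 to 213400 CPM in the NonTg controls to 30290 to 54940 CPM in HepABC HCC, and the difference between the models was called as lower for 10 of the 13 hepatocyte markers, between -2.70 and -0.73 over all 13. Their part in these differences was not tested.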

How the results depend on the processing

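Under the alternatives beside leaving out 1 fish, the number of the 10 genes called in HepABC HCC was 5 on library totals alone, 9 by DESeq2 and 7 otherwise. Library totals alone moved the median of all genes to 0.87 in the HepABC model, 0.22 in the CreLox model and 0.63 for the difference between the models, and the share of calls that were higher from 51.8% to 90.3%, from 57.0% to 82.0% and from 53.0% to 87.4%. On library totals alone in the HepABC model, igfbp2 ENSDARG00000031422 (-0.08), ghra (-0.62) and igf2a (0.23) were below that median of 0.87. Which scaling is the more accurate was not tested. The number called in CreLox HCC was 1 by DESeq2 and 1 without fish 621 and 622, and 0 otherwise. For the difference between the models it was 5 by DESeq2 and between 2 and 4 otherwise. Leaving out 1 fish gave 7 to 8 genes in HepABC HCC, 0 to 1 in CreLox HCC, the 1 being igfals without fish 624, and 2 to 4 for the difference. In both comparisons of CreLox zebrafish without HCC the count was 0 under every alternative. For HepABC the fit to the compared groups alone is the fit reported. Counts over all genes moved by over 1.5 times in CreLox HCC, from 707 to 2128 by DESeq2, 1686 without fish 621 and 622 and as low as 234 without 1 fish; in CreLox without HCC, from 53 to 349 by DESeq2, 26 in the compared groups alone, 13 with at least 10 counts in every library and 2 by voom; between CreLox with and without HCC, from 1 to 16 by DESeq2; and on library totals alone, from 5342 to 8809 in HepABC and from 2115 to 3482 for the difference between models, which was 1211 at its lowest without 1 fish. Over the 10 genes and all alternatives, 936 values stayed on the same side of the threshold with no called value changing sign, 18 gained the call and 25 lost it. Over the 21 called changes of the other axis genes, 61 values lost the call and none gained or reversed one. Among the 10 genes 1 value turned direction with a call, that of igfbp1b for the difference between models without fish 621 and 622 (-4.34). No paired analysis was possible because the labels give no number or animal shared between groups. Precision rests on 2 to 5 fish per group.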
